A study of Mus musculus with 12 samples.

Results

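Organoids obtained from pancreatic acini after a pulse of YAP (yDucts) were compared with organoids grown from the native pancreatic ducts (Ducts). The comparison took the 4 arrays labelled yDucts and the 4 labelled Ducts, 8 of the 12 arrays of the series, and used the 34945 of 45101 probe sets that carry exactly 1 gene symbol. The study asked how far cells with an acinar history resemble native ductal organoids once YAP has been switched on in them. The remaining 4 arrays are freshly isolated exocrine acini (Acini), and their levels are given here beside those of the organoids. yDucts came from acini of mice that carry the R26-rtTA and tetO-YAP S127A alleles, in which doxycycline turns on a YAP that lacks an inhibitory phosphorylation site. The R26 locus is active in most cell types, so the transgene was not limited to acinar cells by its promoter. Both kinds of organoid were kept in 100% Matrigel under Advanced DMEM/F12 with B27, N-Acetylcysteine, gastrin, EGF, Noggin, FGF10, Nicotinamide and R-Spondin1. For the native Ducts the sources used here do not give the genotype, strain or age of the mice, and for both kinds of organoid they give neither the passage number nor whether doxycycline was present when RNA was taken. Cell of origin, genotype, donor mice and culture history therefore cannot be told apart in any difference below. The letters A to D mark biological replicas of a group, and no source used here says whether these are separate mice, isolations or cultures, so every p measures the spread between arrays.

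YAP is the transcriptional effector of the Hippo pathway. The Hippo kinases hold it in the cytoplasm, and when it enters the nucleus it joins the TEAD factors on DNA and turns on genes of growth, adhesion and cell shape. Acinar cells make digestive enzymes under factors such as Ptf1a and Nr5a2, whereas duct cells form a polarized epithelium with keratins, tight junctions and transporters for bicarbonate and water. After injury acinar cells can take on duct features, and REG proteins and acute phase proteins are typical products of an injured or inflamed pancreas.

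All values are log2 expression levels, and a difference is the yDucts mean minus the Ducts mean. A gene was called when its adjusted p (limma, Benjamini-Hochberg over the 14363 genes tested) was under 0.05. The 30th percentile of an array, taken as the limit of low values, lay between 3.18 and 3.23 on the 8 organoid arrays. On the Acini arrays it lay between 3.64 and 3.79. The labelled cell type was checked first. The 5 defining duct markers with a value spanned 2.23 to 13.21 over the 8 arrays, with Krt19 between 11.03 and 13.21 and Epcam between 11.15 and 12.64. Cftr, the chloride channel of duct cells, lay between 2.23 and 6.61 and so was not high on any array. Sox9 lay between 6.41 and 8.30, against a mean of 6.68 in Acini. Acinar markers were far below their level in Acini in both kinds of organoid. Cpa1 stood at 3.09 to 3.45 against 14.59 in Acini. Over the 8 arrays defining markers of stroma lay between 3.15 and 4.47, those of endothelium between 3.47 and 5.10 and those of endocrine cells between 3.52 and 5.0. Those of immune cells lay between 3.84 and 6.57, and the neural marker Sox10 between 5.5 and 5.89. The immune marker Cd68 averaged 5.02 in Ducts and 4.88 in yDucts, above its 3.61 in Acini, while Lyz2, Cd3e and Sox10 were under their Acini means. None of the acinar, stromal, endothelial, endocrine, immune and neural markers was called. Of the 5 duct markers, Krt7 was called lower in yDucts (difference -0.83, adjusted p = 0.00773), at 11.87 to 13.07 over the 8 arrays. Over the whole lists, none of the 12 stromal, 8 endothelial, 10 immune or 4 neural markers tested was called by limma, with 1, 0, 1 and 0 of them at an unadjusted p under 0.05. Among all genes 4.17% were called and 19.4% had such a p. The summed linear level of the 18 stromal markers measured spanned 250 to 281 in Ducts, 271 to 288 in yDucts and 4714 to 8332 in Acini. That of the 15 endothelial markers spanned 251 to 317, 292 to 330 and 1752 to 2343 in the same order, and that of the 15 immune markers 505 to 1009, 722 to 1295 and 728 to 1146.

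The Ducts arrays were not a tight group, and this bears on every result. Distances between arrays were Euclidean distances over the tested genes. Ducts C and D lay 32.4 apart and Ducts A and B 69.4 apart, but each of the first pair lay 84.1 to 108 from each of the other. The yDucts arrays lay 22.9 to 51.8 apart, with yDucts B the one farthest from the others. The median distance between a Ducts and a yDucts array was 87.0, against 86.7 within Ducts, 40.8 within yDucts, 206 between Acini and Ducts and 203 between Acini and yDucts. Ducts A lay about as near to the yDucts arrays (63.9 to 69.7) as to Ducts B. Across genes the median SD was 0.235 in Ducts and 0.137 in yDucts, and 76.8% of genes had the larger SD in Ducts. A range over 2 among the Ducts arrays occurred in 815 genes, and in 499 of them both Ducts A and Ducts B exceeded both Ducts C and Ducts D. Because of this split, results are also given without one or the other pair of Ducts arrays. The 3′ minus 5′ difference of the control probe sets, a sign of RNA quality, was -0.04 ± 0.04 (SD, n = 4) in Ducts and -0.15 ± 0.02 in yDucts for Gapdh, and 0.73 ± 0.07 and 0.54 ± 0.07 for Actb. On the Acini arrays this difference was 1.29 to 1.91 for Gapdh and 1.51 to 2.33 for Actb. Its part in the results, the levels in Acini among them, was not tested.

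**Figure D1:**
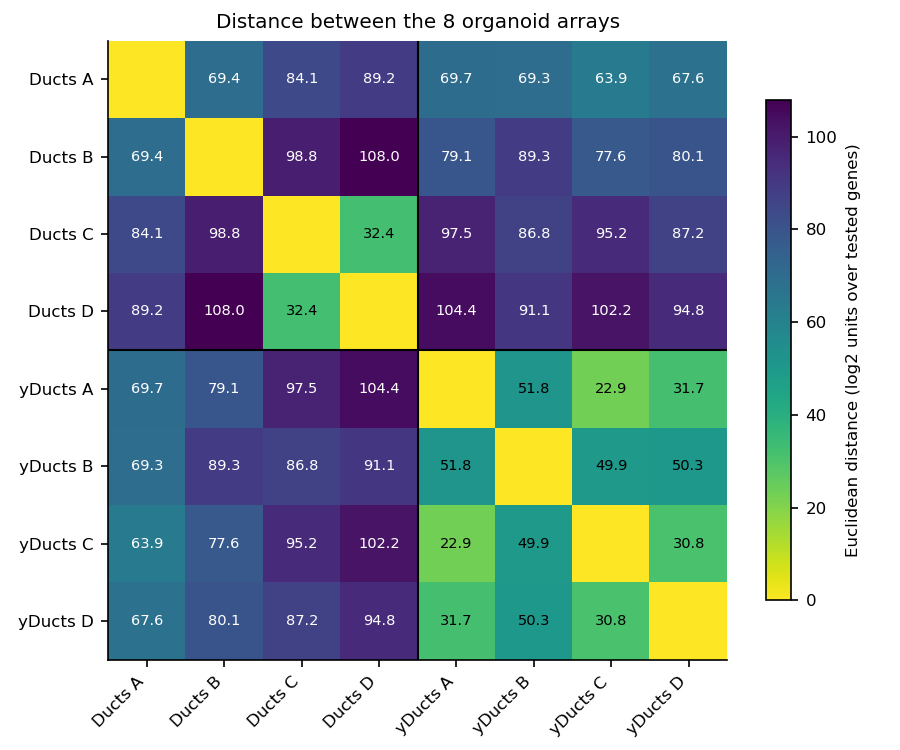
Heat map of the Euclidean distance between each pair of the 8 organoid arrays, over the log2 values of the genes tested. Ducts C and D are close to each other at 32.4, both are far from Ducts A and B, and the yDucts arrays are 22.9 to 51.8 apart.

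Of the 14363 genes tested, 599 (4.17%) were called. In yDucts 403 genes (2.81%) were higher and 196 (1.36%) lower. Among them 210 (1.46%) were higher and 95 (0.661%) lower by at least 2-fold, and 35 (0.244%) were higher but only 2 (0.0139%) lower by at least 8-fold. The groups of 4 arrays did not overlap for 1119 genes (7.79%) that were higher in yDucts and 699 (4.87%) that were lower. The median difference of all genes was 0. At an unadjusted p under 0.05 there were 2792 genes (19.4%). A further 493 genes (3.43%) differed by at least 2-fold without being called. Of 71 genes that differed by 2 or more on the log2 scale and were not called, 65 had the larger SD in Ducts. In bulk RNA, more cells that express a gene and more RNA of it in each cell cannot be told apart.

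The number of calls turned on single arrays. It fell to 126 higher and 49 lower genes without yDucts A, to 129 and 51 without yDucts C, to 167 and 67 without yDucts D, to 186 and 76 without Ducts C and to 181 and 72 without Ducts D. Without yDucts B it was 319 and 98. It grew to 656 and 339 without Ducts A and to 790 and 584 without Ducts B. With both Ducts A and Ducts B left out it reached 2654 and 2366, and with Ducts C and Ducts D left out it was 297 and 226. Of the 403 and 196 genes, 115 and 44 were called in each of the 8 fits with 1 array left out, and 209 and 87 with either pair of Ducts left out. Among the 82 called genes named below, 38 were called in all 8 such fits, 82 without Ducts A and B and 50 without Ducts C and D. Without Ducts A and B all of the 403 and 196 calls were kept, in a fit that called 35% of all genes. Keeping the 82 there is thus no sign of stability, and the 209 and 87 are simply the calls kept without Ducts C and D. The fold of 5 of the 82 moved by more than 1.5 times when 1 array was left out. Ltb went from 21.3 to 35.4-fold and Mecom from 8.33 to 13.8-fold without Ducts A, S100a9 from 7.77 to 5.09-fold without Ducts B, and Ifitm3 from 22.2 to 11.2-fold without Ducts D. The ratio of means of Myl9 went from 6.93 to 11.2 without yDucts B.

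**Figure D2:**
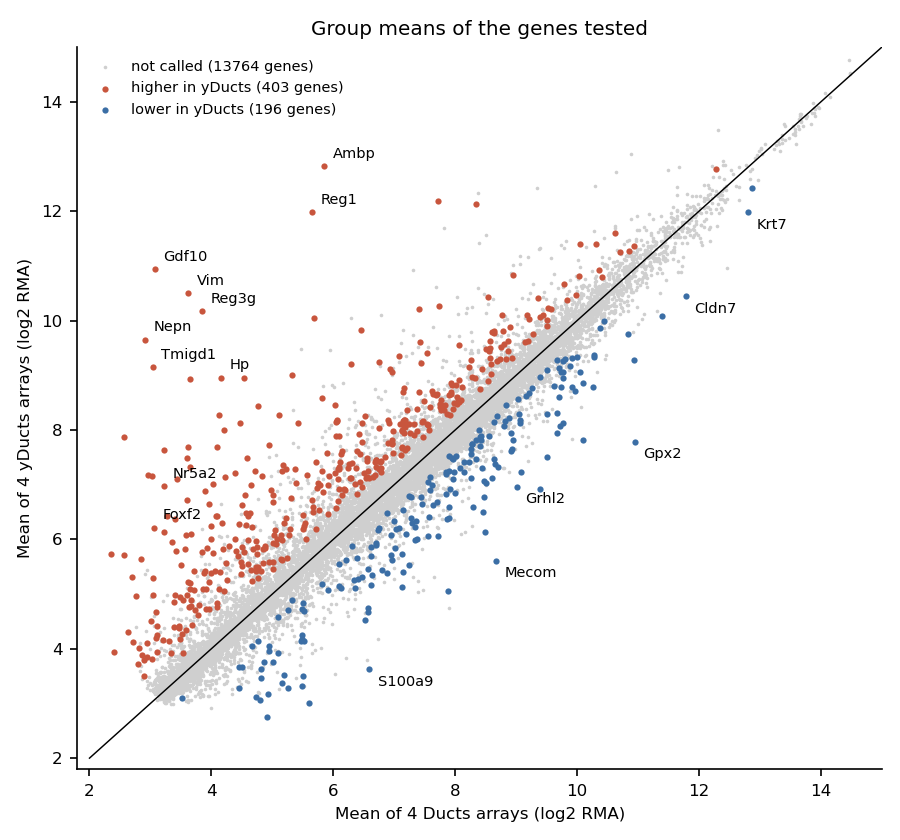
Mean log2 level in yDucts (vertical axis) against the mean in Ducts (horizontal axis), 1 point for each gene tested, n = 4 arrays a group. The 403 genes called higher in yDucts reach farther from the diagonal than the 196 called lower.

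**Figure D3:**
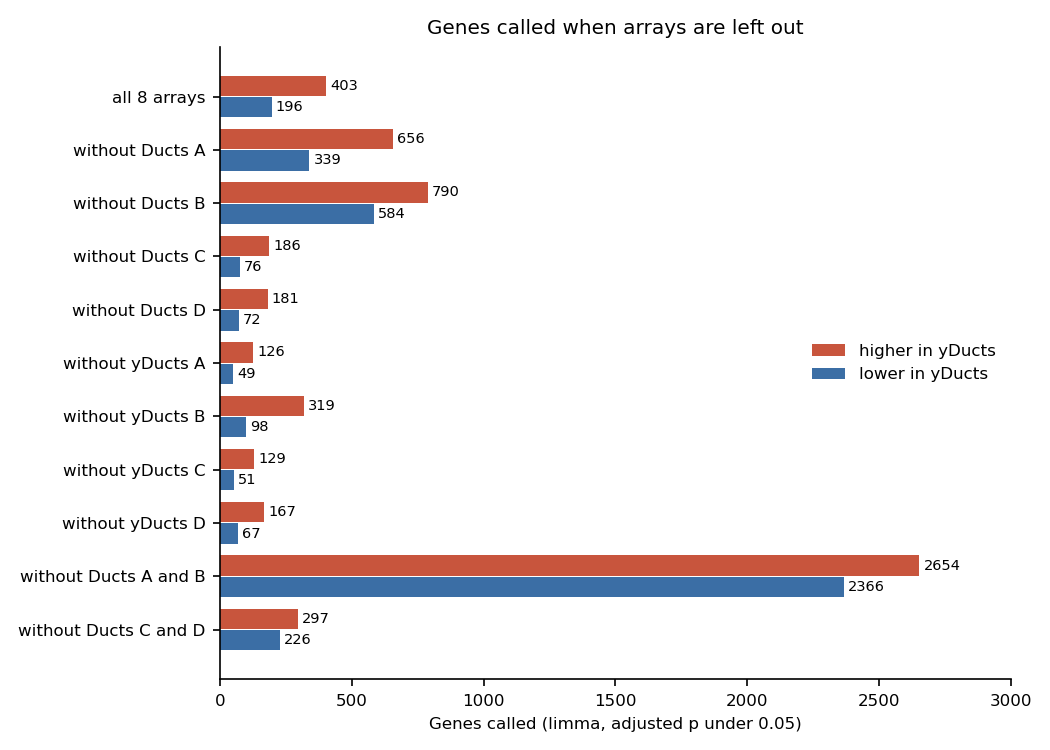
Number of genes called higher or lower in yDucts (horizontal axis) in the fit of all 8 arrays and in fits with arrays left out. The count is lowest without yDucts A and highest without Ducts A and B together.

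Yap1 itself was not called in the comparison of all 8 arrays. It stood at 9.73, 9.54, 9.38 and 9.33 in Ducts A to D and at 9.70, 9.59, 9.73 and 9.67 in yDucts A to D, against a mean of 8.38 in Acini. The Ducts and yDucts values overlapped, and the difference was 0.18 with a 95% interval from -0.07 to 0.42 (adjusted p = 0.403). Its other probe set gave a difference of 0.74, which limma called where each gene was read by its probe set of largest interquartile range (adjusted p = 0.0454). Yap1 was also called without Ducts A and B (difference 0.32, adjusted p = 0.0297) and with array weights (0.30, adjusted p = 0.015), but not without Ducts C and D (0.038, adjusted p = 0.881). The fit without Ducts A and B called 35% of all genes and the weighted fit 39.8%. The weights were 0.26 and 0.19 for Ducts A and B, against 2.44 and 0.996 for Ducts C and D. Both fits thus rest mostly on the same native arrays and are not separate support. The sources used here do not say whether either probe set also reads the transgene. Wwtr1, which encodes the YAP paralog TAZ, differed by -0.17 ± 0.09 (SE; adjusted p = 0.357). None of the 12 marker genes of the study that were tested was called by limma, and none had an unadjusted p under 0.05, beside 2.81% of all genes called higher and 1.36% called lower. These are duct, progenitor, acinar and growth genes, and the study chose them on such organoids. Without Ducts A and B, however, 5 of the 12 were called higher and 1 lower, among them Car2 (difference 3.45, adjusted p = 0.00131) and Cd44, an adhesion receptor (1.54, adjusted p = 0.000372), in a fit that called 18.5% of all genes higher and 16.5% lower. Without Ducts C and D none of the 12 was called, beside 2.07% and 1.57% of all genes. Sox9, a duct and progenitor factor, lay between 6.41 and 8.30 in Ducts and between 6.60 and 7.20 in yDucts. Acini stood at 6.11 to 7.12 for this gene, so its level in yDucts was close to that in Acini. Krt19, a duct keratin, differed by -0.08 ± 0.46. Car2, a carbonic anhydrase of duct cells, stood at 10.70 and 11.78 in Ducts A and B but at 6.51 and 6.04 in Ducts C and D, and at 8.86 to 10.54 in yDucts, so that the yDucts values fell between the pairs of native arrays.

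Of 22 YAP target genes tested, 2 were higher and 0 lower in yDucts, and 7 had an unadjusted p under 0.05. Their median difference was -0.04, against 0 over all genes. Among all genes 2.81% were called higher, 1.36% were called lower and 19.4% had an unadjusted p under 0.05. Ccn2 (also known as Ctgf), the classical YAP target, was high in both, at 10.85 to 12.53 in Ducts and 11.29 to 12.22 in yDucts, with a difference of 0.12 ± 0.36 (SE; adjusted p = 0.888). The exceptions were Foxf2 and Ptpn14. Foxf2, a forkhead factor better known from mesenchyme, stood at 3.14, 2.55, 3.08 and 3.49 in Ducts A to D and at 6.58, 6.28, 6.24 and 5.76 in yDucts A to D. Native organoids were thus at the bottom of the scale for this gene, as were Acini with a mean of 3.26, while every yDucts array was clearly above it. The difference was 3.15 ± 0.23, at least 7.62-fold (adjusted p = 0.000483). Ptpn14, a phosphatase that binds YAP and holds it back, went from 8.75, 8.47, 8.78 and 8.93 in Ducts to 9.40, 9.20, 9.24 and 9.33 in yDucts. That is 1.47-fold (difference 0.56 ± 0.11, adjusted p = 0.0356), with no overlap of the groups. Its 2 other probe sets differed by 0.012 and 0.038, and the mean of its probe sets by 0.20, which was not called (adjusted p = 0.338). Its call was lost without Ducts C and without any single yDucts array (adjusted p 0.0612 to 0.128), whereas Foxf2 was called in all 8 fits with 1 array left out. Among 27 Hippo components tested, Ptpn14 was the 1 called, and 5 of the 27 differences were above 0, with a median of -0.19.

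The promoters of these 2 genes are shown as those of the called members of the YAP list. The sequences are the 250 bases before the annotated start in RefSeq on GRCm38.p6, written 5′ to 3′ along the gene. Capitals mark a match to GGAATG, the core bound by TEAD factors, on either strand. Foxf2 is at chr13:31625566-31625815 and Ptpn14 at chr1:189728018-189728267, both on the plus strand.
Foxf2: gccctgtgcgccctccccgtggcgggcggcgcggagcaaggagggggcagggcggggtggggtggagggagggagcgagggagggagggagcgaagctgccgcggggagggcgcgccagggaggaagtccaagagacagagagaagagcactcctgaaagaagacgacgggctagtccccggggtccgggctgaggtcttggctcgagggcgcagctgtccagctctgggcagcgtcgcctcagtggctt
Ptpn14: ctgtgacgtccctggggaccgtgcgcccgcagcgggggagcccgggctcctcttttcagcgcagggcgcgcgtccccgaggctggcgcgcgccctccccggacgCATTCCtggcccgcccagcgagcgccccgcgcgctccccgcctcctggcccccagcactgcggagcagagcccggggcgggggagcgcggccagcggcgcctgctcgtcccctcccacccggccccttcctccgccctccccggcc
Ptpn14 held GGAATG on the minus strand, written CATTCC above, 146 bases before its start, and these letters were absent from the Foxf2 window. Over the windows of 300 bases around the start, 12.5% of 11551 tested genes held GGAATG, against 55 of the 324 windows of genes called higher (17.0%) and 14 of the 148 windows of genes called lower (9.46%). A match is a description of letters and not of binding.

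Gdf10, Nepn, Tmigd1 and Ptger3 had Ducts means under the limit of low values and were abundant in yDucts, whereas Ambp and Reg1, given with their lists, also had large differences but lay above that limit in native organoids. Gdf10, a secreted ligand of the TGF-beta superfamily, stood at 2.90, 3.16, 3.0 and 3.21 in Ducts A to D and at 11.28, 10.06, 11.24 and 11.18 in yDucts A to D. yDucts B was the lowest of its group, and the groups were separated by more than 6 log2 units. The difference was 7.87 ± 0.27, at least 212-fold (adjusted p = 8.88e-06), and the Acini mean was 6.73. Nepn, a secreted leucine-rich proteoglycan, was between 2.75 and 3.14 in Ducts and at 10.52, 8.08, 9.91 and 10.10 in yDucts, at least 87.0-fold (adjusted p = 0.000394). Unlike Gdf10 it was also low in Acini, at 3.40. Tmigd1, an adhesion protein of intestinal and renal epithelium, was between 2.82 and 3.25 in Ducts and at 10.35, 7.46, 9.91 and 8.85 in yDucts, at least 60.7-fold (adjusted p = 0.00132). yDucts B was again the lowest array for both genes. Ptger3, a receptor for prostaglandin E, rose from 2.15 to 3.05 in Ducts to between 7.59 and 8.41 in yDucts, at least 25.4-fold (adjusted p = 2.43e-05), and it was higher still in Acini at 10.58.

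Tifa was the gene with the steadiest difference. This adaptor of NF-kappaB signalling stood at 5.71, 5.68, 5.66 and 5.65 in Ducts A to D and at 10.10, 10.22, 10.03 and 9.81 in yDucts A to D, while Acini had 5.72. Each group spanned less than 0.5, and the difference was 4.37 ± 0.10, or 20.6-fold (adjusted p = 8.14e-07). Cacna2d1, a calcium channel subunit, was 21.1-fold higher in yDucts (adjusted p = 0.000394). C1s1, a protease of the complement system, was 39.3-fold higher (adjusted p = 2.33e-05), with yDucts B the highest array at 9.45. Ltb, a cytokine of the TNF family, was 21.3-fold higher (adjusted p = 0.022), and among the native arrays Ducts A stood out at 6.75 against 3.29 to 4.47. Ifitm3, an antiviral membrane protein, had the least even values of this set, at 9.46, 8.82, 7.83 and 4.76 in Ducts and 12.73, 10.67, 12.61 and 12.76 in yDucts (adjusted p = 0.0468). The 82 called genes named here include 11 whose lower group had a mean under the limit of low values, and folds of those are given as lower bounds. The call of Ltb was lost without Ducts C or D or yDucts A, B or C (adjusted p 0.0507 to 0.0824), and that of Ifitm3 without Ducts C or any single yDucts array (0.0536 to 0.153).

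Vimentin and 3 factors of epithelial-mesenchymal transition (EMT) were higher in yDucts. Of 17 EMT genes tested, 4 were higher and 0 lower, with a median of 0.22 against 0 over all genes and 6 at an unadjusted p under 0.05. Over all genes 2.81% were called higher and 19.4% had such a p. Vim, the intermediate filament of mesenchymal cells, stood at 4.07, 3.41, 3.55 and 3.46 in Ducts A to D and at 10.96, 9.51, 10.78 and 10.76 in yDucts A to D. The highest native value lay more than 5 units under the lowest yDucts value, and the difference was 6.88 ± 0.32, or 118-fold (adjusted p = 3.33e-05). Acini had 8.77, between both, on arrays whose summed stromal and endothelial marker levels exceeded those of the organoids. Which cells gave this Acini level was not tested. Zeb1, a repressor of epithelial genes, stood at 3.60, 3.01, 2.61 and 2.60 in Ducts and at 7.30, 7.55, 6.97 and 6.89 in yDucts, at least 14.6-fold (difference 4.22 ± 0.25, adjusted p = 0.000156). Its 2 other probe sets differed by 0.63 and 0.70. Twist1 and Twist2, helix-loop-helix factors of mesenchyme, were both low everywhere, at 2.73 to 3.46 in Ducts and 3.57 to 4.33 in yDucts, and both were called (adjusted p 0.00895 and 0.0141). Twist2 lost its call without yDucts A (adjusted p = 0.061) or yDucts C (adjusted p = 0.0579). Of the defining stromal markers, Col1a1 differed by -0.03, Dcn by 0.06 and Pdgfrb by 0.09, and none was called.

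The Vim promoter is shown because this gene had the second largest fold among called genes measured in both groups. It lies at chr2:13574061-13574310 on the plus strand. None of the letters searched, GGAATG (TEAD), the interferon-stimulated response element and TGANTCA (AP-1), was found in it on either strand.
Vim: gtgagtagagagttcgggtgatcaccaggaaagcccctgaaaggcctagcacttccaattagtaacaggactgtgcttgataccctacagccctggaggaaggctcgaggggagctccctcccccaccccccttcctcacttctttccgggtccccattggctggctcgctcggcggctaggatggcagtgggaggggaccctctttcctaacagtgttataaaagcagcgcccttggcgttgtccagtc

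In the REG and acute phase list, 3 of 20 genes tested were higher in yDucts and 0 lower, and 10 had an unadjusted p under 0.05. Their median difference was 1.24, against 0 over all genes, and 6 of the 20 were higher without overlap of the groups, as were 7.79% of all genes. Among all genes 2.81% were called higher and 19.4% had an unadjusted p under 0.05. The list depended on the native pair. Without Ducts C and D its median was 0.26, with 4 higher and 1 lower, beside 2.07% and 1.57% of all genes. Without Ducts A and B its median was 1.49, with 14 higher and 0 lower, beside 18.5% and 16.5%. Reg3g, a secreted lectin that kills Gram-positive bacteria, stood at 3.20, 4.15, 4.05 and 3.99 in Ducts A to D and at 9.74, 10.59, 10.24 and 10.13 in yDucts A to D. Reg1, the lectin first found in regenerating islets, stood at 4.14, 5.67, 6.69 and 6.11 in Ducts and at 12.12, 11.46, 12.04 and 12.28 in yDucts. Every yDucts array was more than 4 units above every native array for both genes. The folds were 80.3 for Reg3g (adjusted p = 1.47e-05) and 80.0 for Reg1 (adjusted p = 0.000673). Acini also expressed them, Reg3g at 9.88 and Reg1 at 14.25. Hp, which encodes haptoglobin, the scavenger of free haemoglobin, stood at 4.68, 4.10, 3.65 and 4.2 in Ducts and at 8.27, 9.40, 9.59 and 8.55 in yDucts, 27.8-fold higher (adjusted p = 0.000394), and at 5.61 in Acini. Reg3b, a further lectin of the family named here after its values were seen, showed the split of the native arrays. It stood at 4.98 and 6.73 in Ducts A and B but at 10.94 and 10.85 in Ducts C and D, and at 11.95 to 13.02 in yDucts. It was not called (adjusted p = 0.142), although it was when either pair was left out, C and D (adjusted p = 0.00343) or A and B (difference 1.44). Ambp, the precursor of 2 plasma proteins made by liver, was counted among the duct markers and stood at 7.29, 7.22, 4.71 and 4.19 in Ducts against 12.72 to 13.01 in yDucts, 125-fold higher (adjusted p = 0.00212). Reg1, Reg3g, Hp and Ambp were called in all 8 fits with 1 array left out.

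Both REG promoters lie on chromosome 6 and are shown because the genes were higher by nearly the same fold. Reg1 is at chr6:78425733-78425982 on the plus strand and Reg3g at chr6:78468875-78469124 on the minus strand. Capitals in Reg1 mark TGANTCA, the AP-1 letters, 117 bases before the start. No match to the 3 motifs was found in the Reg3g window.
Reg1: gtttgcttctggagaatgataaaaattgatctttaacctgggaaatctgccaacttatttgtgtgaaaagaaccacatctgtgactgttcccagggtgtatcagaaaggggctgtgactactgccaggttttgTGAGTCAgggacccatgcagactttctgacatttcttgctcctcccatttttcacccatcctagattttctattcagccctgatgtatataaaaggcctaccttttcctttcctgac
Reg3g: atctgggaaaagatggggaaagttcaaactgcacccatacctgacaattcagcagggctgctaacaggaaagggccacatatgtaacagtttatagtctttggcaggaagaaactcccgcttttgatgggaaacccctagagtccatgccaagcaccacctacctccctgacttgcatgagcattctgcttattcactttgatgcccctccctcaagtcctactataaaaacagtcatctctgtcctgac
TGANTCA occurred in 5.44% of the windows of tested genes, in 6.79% of those of genes called higher and in 7.43% of those called lower.

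**Figure D4:**
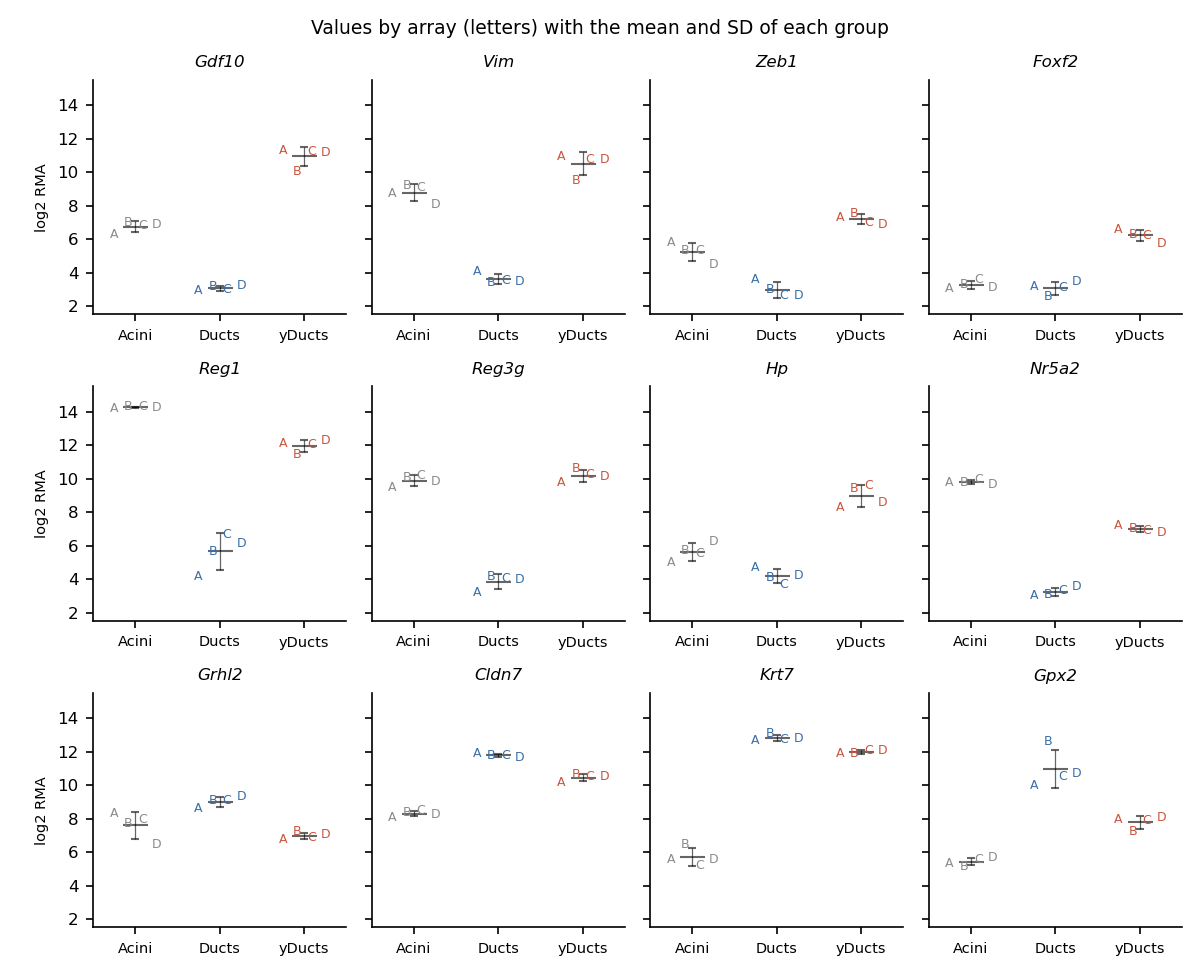
Log2 level (vertical axis) of 12 genes in each of the Acini, Ducts and yDucts arrays. Letters are arrays, and the marks with bars are the mean and SD of 4 arrays. Gdf10, Vim, Zeb1, Foxf2, Reg1, Reg3g, Hp and Nr5a2 are higher and Grhl2, Cldn7, Krt7 and Gpx2 lower on every yDucts array than on every Ducts array.

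One acinar transcription factor was high in yDucts and near the limit of low values in native organoids. Nr5a2, a nuclear receptor that works with Ptf1a on enzyme genes, stood at 2.99, 3.06, 3.34 and 3.53 in Ducts A to D and at 7.20, 6.99, 6.89 and 6.80 in yDucts A to D. The yDucts values lay within 0.4 of each other, between Ducts and Acini (9.78), and the difference was 3.74 ± 0.15, or 13.4-fold (adjusted p = 1.47e-05). Its 3 other probe sets differed by 0.40 to 4.67. It was the 1 called of 10 acinar factors tested, beside 4.17% of all genes. Ptf1a was at 2.88 to 3.30 in Ducts, 3.06 to 3.50 in yDucts and 10.23 in Acini. None of 15 acinar enzyme genes tested was called by limma, and 0 had an unadjusted p under 0.05, beside 19.4% of all genes. Cela1, an elastase, was between 4.57 and 7.13 in Ducts and between 5.95 and 6.50 in yDucts, against 14.45 in Acini.

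Of 29 duct markers tested 25 were not called, 2 were higher (Aqp1 and Ambp) and 2 lower (Krt7 and Anxa3). Their median was 0.17. Among all genes 2.81% were called higher and 1.36% lower. Without Ducts A and B 14 of the markers were higher and 3 lower, beside 18.5% and 16.5% of all genes. Without Ducts C and D the counts were 1 and 2, beside 2.07% and 1.57%. Krt7, a keratin of simple epithelium, stood at 12.69, 13.07, 12.72 and 12.76 in Ducts A to D and at 11.90, 11.87, 12.06 and 12.08 in yDucts A to D. It was abundant in both kinds of organoid against 5.70 in Acini, yet every yDucts array was under every native one (difference -0.83 ± 0.11, 1.78-fold lower, adjusted p = 0.00773). Aqp1, a water channel, was at 7.44, 8.13, 6.99 and 7.06 in Ducts and at 10.66, 8.57, 10.55 and 11.09 in yDucts, 7.03-fold higher (adjusted p = 0.0279), with yDucts B nearest to the native arrays. Anxa3, a phospholipid-binding annexin, was 1.35-fold lower (adjusted p = 0.0473). Aqp1 lost its call without Ducts C or D or yDucts A, C or D (adjusted p 0.0805 to 0.106). Anxa3 lost it without each single array except Ducts B (0.0656 to 0.16).

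Foxa1 and Foxa3, forkhead factors of foregut endoderm, were lower, 2 of the 18 pancreatic transcription factors tested, beside 1.36% of all genes. Foxa2, of the same family and named here after its values were seen, differed by 0.082 ± 0.14 (adjusted p = 0.782). Foxa1 stood at 7.12, 6.93, 6.55 and 6.61 in Ducts and at 5.49, 5.70, 5.72 and 4.87 in yDucts (difference -1.36 ± 0.22, 2.56-fold lower, adjusted p = 0.0155). Foxa3 stood at 6.26, 7.31, 7.09 and 6.89 in Ducts and at 4.88, 5.48, 5.15 and 6.02 in yDucts (2.84-fold lower, adjusted p = 0.0306). Neither gene overlapped between the groups. Pdx1, the master factor of pancreas development, differed by 0.20 ± 0.15 (adjusted p = 0.511). Foxa1 lost its call without yDucts A (adjusted p = 0.061), and Foxa3 without Ducts C or D or yDucts A, B or C (0.0637 to 0.102).

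Of 15 intestinal genes tested, 3 were higher in yDucts and 0 lower, beside 2.81% of all genes called higher. Without overlap of the groups 6 of the 15 were higher, as were 7.79% of all genes. Cdx2, the homeobox factor that sets intestinal identity, stood at 6.20, 6.41, 6.75 and 6.55 in Ducts A to D and at 7.86, 7.67, 7.77 and 7.85 in yDucts A to D, with 5.16 in Acini. The groups were more than 0.9 apart, and the difference was 1.31 ± 0.13, or 2.48-fold (adjusted p = 0.00168). Cdhr5, a cadherin of the brush border, was 2.25-fold higher (adjusted p = 0.011). Guca2a, which encodes the gut peptide guanylin, was 2.78-fold higher (adjusted p = 0.0315), but its call was lost without Ducts C or D or yDucts A, C or D (adjusted p 0.0759 to 0.117). None of 25 gastric, mucin and trefoil genes tested was called by limma, 2 having an unadjusted p under 0.05, beside 19.4% of all genes.

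Of 28 junction genes tested, 4 were lower and 0 higher, beside 1.36% of all genes called lower, and 8 of the 28 differences were above 0, with a median of -0.13. Both directions were called in other fits. Without Ducts A and B 7 were higher and 6 lower, beside 18.5% and 16.5% of all genes. Without Ducts C and D the counts were 1 and 5, beside 2.07% and 1.57%. With all 12 arrays 1 was higher and 4 lower, and without Ducts B alone 2 and 5. These last 2 fits called 3.38% and 9.57% of all genes in either direction. Cldn7, a claudin of tight junctions, stood at 11.87, 11.79, 11.78 and 11.67 in Ducts A to D and at 10.15, 10.61, 10.50 and 10.54 in yDucts A to D. No native array came within 1 unit of a yDucts array, and the difference was -1.33 ± 0.12, 2.51-fold lower (adjusted p = 0.00114). Dsg2, a desmosomal cadherin, was 2.12-fold lower (adjusted p = 0.00472). Cldn12, another claudin, was 1.87-fold lower (adjusted p = 0.0467), and Pkp3, a desmosomal plaque protein, 2.02-fold lower (adjusted p = 0.0347). Cldn12 lost its call without each single array except Ducts B (adjusted p 0.0557 to 0.155), and Pkp3 without Ducts C or D or yDucts A, B or C (0.0771 to 0.126). Grhl2, a factor that turns on junction genes in epithelia, was among the 15 largest decreases of all. It stood at 8.59, 9.07, 9.07 and 9.30 in Ducts A to D and at 6.75, 7.21, 6.86 and 7.02 in yDucts A to D, with 7.60 in Acini. Its difference was -2.05 ± 0.17, 4.13-fold lower (adjusted p = 0.000809), and its 3 other probe sets differed by only -0.51 to -0.29. The mean of its probe sets differed by -0.79 (adjusted p = 0.00615). Keratins gave 2 lower of 16 tested, Krt7 and Krt80, of which Krt80 lost its call without any single array except Ducts A and B (adjusted p 0.0933 to 0.154).

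The Cldn7 promoter, chr11:69964529-69964778 on the plus strand, is given as that of the junction gene with the largest called decrease. Capitals mark the interferon-stimulated response element, 143 bases before the start, and GGAATG, 70 bases before it.
Cldn7: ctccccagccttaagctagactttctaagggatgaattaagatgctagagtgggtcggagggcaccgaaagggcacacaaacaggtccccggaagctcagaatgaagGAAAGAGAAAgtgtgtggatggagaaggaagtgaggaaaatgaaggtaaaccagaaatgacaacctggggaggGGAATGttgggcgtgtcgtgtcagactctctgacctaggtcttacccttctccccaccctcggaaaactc
The interferon-stimulated response element occurred in 2.77% of windows of all tested genes, in 9 of the 324 windows of genes called higher (2.78%) and in 10 of the 148 of genes called lower (6.76%).

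Decreases were smaller than increases. Gpx2, a glutathione peroxidase of the digestive epithelium, stood at 9.95, 12.59, 10.54 and 10.71 in Ducts A to D and at 7.95, 7.23, 7.86 and 8.09 in yDucts A to D. Ducts B was far above the other native arrays, yet the groups were separate, and the difference of -3.17 ± 0.52 was the largest called decrease, 8.97-fold (adjusted p = 0.0173). Mecom, a zinc finger factor, stood at 6.47, 9.82, 9.20 and 9.17 in Ducts and at 5.06 to 6.09 in yDucts (8.33-fold lower, adjusted p = 0.0448), with Ducts A next to the yDucts arrays. Its other probe set differed by -0.18, and the mean of all its probe sets by -1.15 (adjusted p = 0.054). S100a9, a subunit of calprotectin, was 7.77-fold lower (adjusted p = 0.0256), and S100a14 was 4.88-fold lower (adjusted p = 0.0453). These were the 2 called of 13 S100 genes tested, beside 1.36% of all genes called lower. Sema3e, a guidance signal, Tenm4, a cell surface teneurin, and Padi2, an enzyme that turns arginine into citrulline, were each near 4-fold lower (3.99, 4.03 and 3.99). The values of Padi2 were 6.51, 6.69, 6.64 and 6.26 in Ducts against 4.72, 4.41, 4.49 and 4.49 in yDucts (adjusted p = 0.000183). Mst1r, the receptor kinase RON, was 3.99-fold lower (adjusted p = 0.00604). H2-Q2, a class I histocompatibility gene, was at 4.52 to 5.62 in Ducts and 2.58 to 2.90 in yDucts, at least 3.28-fold lower (adjusted p = 0.00266). Also among the 15 largest decreases were Bcl2l15 of the BCL2 family (7.05-fold), Tns4, a focal adhesion tensin (5.53-fold), the protocadherin Pcdhb17 (at least 5.30-fold), the endosomal protein Wdfy1 (5.12-fold) and Tmeff1, a transmembrane protein with follistatin domains (4.51-fold). Calls were lost without yDucts A, C or D for Gpx2 (adjusted p 0.05 to 0.0644) and Bcl2l15 (0.0818 to 0.0927), and without Ducts C or D or any yDucts array for Mecom (0.0994 to 0.142). They were lost without Ducts D or any yDucts array for S100a9 (0.0503 to 0.0914), without any array but Ducts A and yDucts D for S100a14 (0.0525 to 0.15), without any array but Ducts A for Tns4 (0.051 to 0.142) and without Ducts C or yDucts A, C or D for Tmeff1 (0.054 to 0.0696).

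In the list of D cyclins, Myc and cell cycle inhibitors, 5 of 23 genes were higher and 0 lower, beside 2.81% of all genes called higher, with a median of 0.27. With all 12 arrays 2 were higher and 1 lower, in a fit that called 3.38% of all genes. Without Ducts C and D the counts were 1 and 1, beside 2.07% and 1.57% of all genes. Without Ducts A and B they were 10 and 4, beside 18.5% and 16.5%. Cdkn2a, which encodes p16 and p19ARF, stood at 5.68, 5.91, 5.57 and 5.41 in Ducts A to D and at 6.32, 7.12, 6.51 and 6.93 in yDucts A to D, 2.11-fold higher (adjusted p = 0.0249). Cdkn2c and Cdkn2d, inhibitors of the same family, were 2.33-fold and 2.05-fold higher, and Phlda3, a p53 target, 1.97-fold. The fifth was Cdkn1b, named after its values were seen (difference 0.48 ± 0.11, adjusted p = 0.0478). The 4 arrays of a group did not overlap the other group for any of them. Phlda3 was called in all 8 fits with 1 array left out. Cdkn2a was not called without Ducts C or D or yDucts C or D (adjusted p 0.0633 to 0.0802), Cdkn2c without Ducts C or D or yDucts A, C or D (0.0779 to 0.098), Cdkn2d without Ducts D or yDucts A, C or D (0.0533 to 0.0697), and Cdkn1b without any array but Ducts B (up to 0.142). Ccnd1, the D cyclin, differed by 0.10 ± 0.12 and Myc by -0.19 ± 0.19.

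Most genes of DNA replication and mitosis had a difference above 0, but 1 passed the test. Of 44 tested, 41 had a difference above 0, with a median of 0.71 against 0 over all genes. Of the 44, 1 was called and 4 had an unadjusted p under 0.05, beside 4.17% and 19.4% of all genes. The called gene was Mcm4, a subunit of the replicative helicase, at 8.06, 8.07, 8.03 and 7.90 in Ducts and at 8.95, 8.41, 9.01 and 8.90 in yDucts (1.74-fold, adjusted p = 0.022). The level of the list depended on the array. The median of the list relative to the Ducts mean was 1.10 in yDucts A, 1.29 in yDucts C and 0.86 in yDucts D but -0.57 in yDucts B, under every native array (-0.39 to 0.38). Without yDucts B the median difference was 1.12 and 5 of the 44 were called, beside 2.9% of all genes. Mcm4 lost its call without Ducts C or D or yDucts A, C or D (adjusted p 0.0642 to 0.0887).

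**Figure D5:**
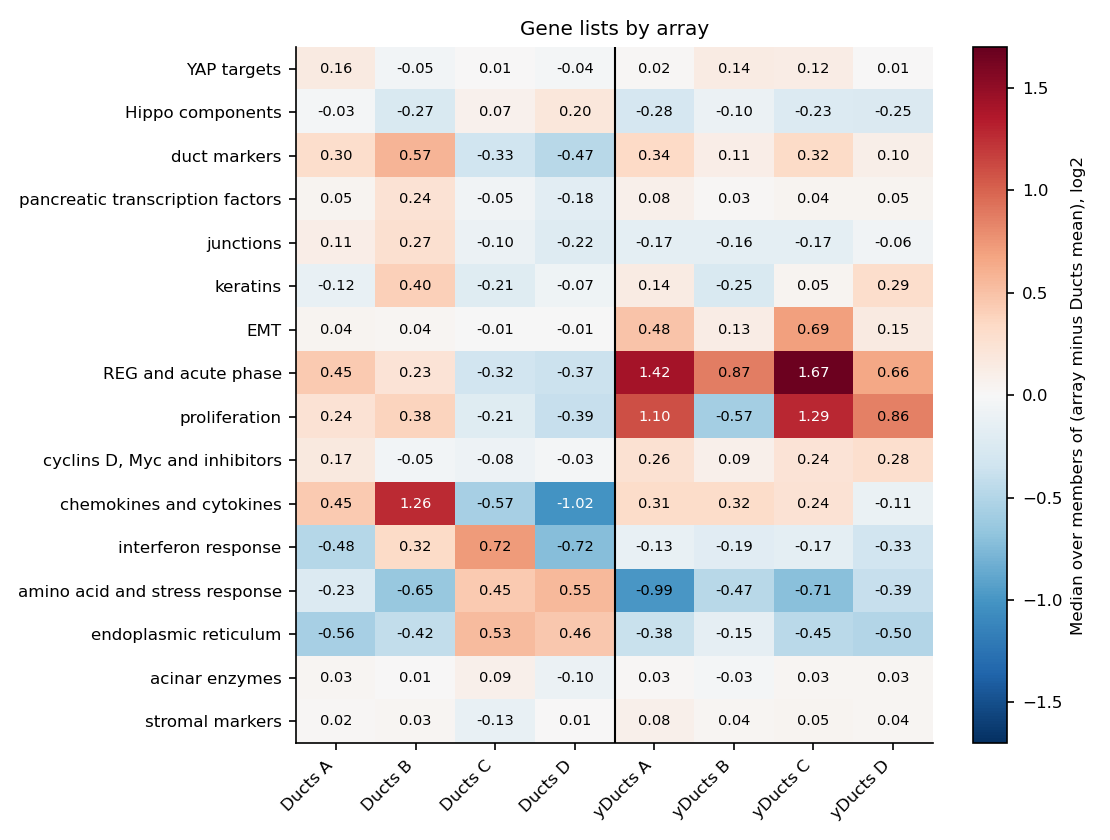
Median log2 level of the members of 16 gene lists (rows) on each of the 8 organoid arrays (columns), relative to the mean of the Ducts arrays. Proliferation genes stand at 1.10, 1.29 and 0.86 in yDucts A, C and D and at -0.57 in yDucts B, and several lists differ between Ducts A and B and Ducts C and D.

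Few receptors and ligands of the signalling lists were called, beside 2.81% of all genes called higher and 1.36% called lower. Fgfr1, an FGF receptor, stood at 4.40, 3.87, 3.59 and 3.68 in Ducts and at 5.36, 5.23, 5.72 and 5.21 in yDucts, 2.82-fold higher (adjusted p = 0.00698), and Etv5, an ETS factor downstream of FGF signals, was 2.01-fold higher (adjusted p = 0.0193). These were the 2 called of 24 FGF genes tested, of which 15 had an unadjusted p under 0.05, beside 19.4% of all genes. Without overlap of the groups 7 were higher and 3 lower, beside 7.79% and 4.87% of all genes. Both directions were called in other fits of the FGF list. With all 12 arrays 4 were higher and 2 lower, beside 3.38% of all genes in either direction. Without Ducts A and B the counts were 5 and 5, beside 18.5% and 16.5%. Without Ducts C and D they were 2 and 0, beside 2.07% and 1.57%. The other probe sets of Fgfr1 differed by 0.27 and 0.32. In the Notch list 2 of 23 were higher, the receptor Notch1 (1.60-fold, adjusted p = 0.0179) and Dtx1, a ubiquitin ligase of the pathway (4.77-fold, adjusted p = 0.0404). The other probe set of each differed by 0.09 and 0.10, and that of Dtx1, which has the higher mean over the 12 arrays, was not called (adjusted p = 0.526). Hes1, the Notch effector among the study markers, differed by 0.33 ± 0.23 (adjusted p = 0.474), and it was called without Ducts A and B (0.72, adjusted p = 0.0115). Nrg4, an ERBB4 ligand, was the 1 called of 13 EGF and ERBB genes (2.56-fold higher, adjusted p = 0.0173), and Bambi, a decoy receptor, the 1 called of 33 TGF-beta and BMP genes (1.89-fold higher, adjusted p = 0.0249). Among 37 Wnt genes, 2 were lower and 0 higher. Wnt7a, a ligand, was at 8.70 to 9.11 in Ducts and 7.33 to 7.97 in yDucts (2.42-fold lower, adjusted p = 0.00651), and Fzd6, a receptor, was 1.35-fold lower (adjusted p = 0.0273). Another probe set of each of the Wnt genes moved the opposite way. Fgfr1 and Wnt7a were called in all 8 fits with 1 array left out. Etv5 was not called without Ducts D or yDucts A, C or D (adjusted p 0.0592 to 0.0772), Notch1 without yDucts A, C or D (0.0592 to 0.0683), Nrg4 without Ducts D or yDucts A or C (0.0533 to 0.0677), Bambi, Dtx1 and Fzd6 without Ducts C or D or any yDucts array (0.0505 to 0.125).

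Of 28 integrin and basement membrane genes tested, 3 were higher and 0 lower: the integrin subunit Itgb5 (1.89-fold, adjusted p = 0.013) and the laminin chains Lamb2 (1.72-fold, adjusted p = 0.0255) and Lamc1 (1.66-fold, adjusted p = 0.0388). Of 26 genes of actin and tropomyosin, 2 were higher and 2 lower. For both lists the share of all genes was 2.81% called higher and 1.36% called lower. Myl9, a myosin light chain of smooth muscle, stood at 2.42 to 3.09 in Ducts and at 6.44, 3.55, 6.42 and 6.16 in yDucts, at least 5.40-fold higher (adjusted p = 0.046), with yDucts B near the native level. Lmna, which encodes the nuclear lamins A and C, was 1.58-fold higher (adjusted p = 0.0329), and 1 of its 4 other probe sets moved the opposite way. Myh14, a nonmuscle myosin, was 2.60-fold lower (adjusted p = 0.0346) and Cnn2, a calponin, 1.60-fold lower (adjusted p = 0.0299). Calls were lost without yDucts A or C for Itgb5 (adjusted p 0.0584 and 0.0586), without Ducts D or any yDucts array for Lamb2 (0.0555 to 0.0978), without Ducts C or D or yDucts A, C or D for Lamc1 (0.0896 to 0.128) and Cnn2 (0.0707 to 0.101), and without any array but Ducts B and yDucts B for Myl9 (0.0619 to 0.151). Lmna and Myh14 lost theirs without Ducts C or D or any yDucts array (0.0533 to 0.11).

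Genes of drug and oxidant metabolism called in the fit of 8 arrays were higher, apart from Gpx2. Of 38 glutathione and antioxidant genes tested, 2 were higher and 1 lower, beside 2.81% and 1.36% of all genes. Without Ducts A and B 15 of these were higher and 9 lower, beside 18.5% and 16.5%. Without Ducts C and D the counts were 2 and 2, beside 2.07% and 1.57%. Of 37 genes of the CYP, UGT and drug metabolism list, 4 were higher and 0 lower in the fit of 8 arrays. Without Ducts A and B the counts of this list were 12 and 3, and without Ducts C and D 2 and 0. Fmo2, a flavin monooxygenase, was 7.41-fold higher (adjusted p = 0.00895), Cyp2d22, a cytochrome P450, 7.05-fold (adjusted p = 0.0201), Ugt2b5, a glucuronosyltransferase, 6.06-fold (adjusted p = 0.0103) and Ephx1, an epoxide hydrolase, 1.47-fold (adjusted p = 0.0269). Sod3, the secreted superoxide dismutase, stood at 4.75, 3.26, 3.33 and 3.24 in Ducts A to D and at 6.97, 7.70, 7.17 and 7.42 in yDucts A to D, 12.7-fold higher (adjusted p = 0.00162). Ducts A was the highest native array and still more than 2 units under yDucts. Gstm7, a glutathione transferase, was 2.41-fold higher (adjusted p = 0.0341), with its other probe set moving the opposite way. Cyp2d22, Ephx1 and Gstm7 lost their calls without Ducts C or D (adjusted p 0.0535 to 0.0929) and without yDucts A, C or D (0.0589 to 0.123). The first 2 of these also lost them without yDucts B (0.0503 and 0.0582), and Gstm7 without Ducts A (0.0512). C1s1, H2-Q2, Pcdhb17, Cyp2d22, Ugt2b5 and Gstm7 belong to families of closely related sequences, and how far their probe sets read other members was not tested.

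Single members were called in most other lists, beside 4.17% of all genes. Peg3, a paternally expressed gene, stood at 6.72, 5.66, 5.28 and 5.59 in Ducts and at 8.28, 9.54, 8.57 and 7.93 in yDucts, 6.81-fold higher (adjusted p = 0.011), the 1 called of 23 imprinted genes. Slc2a2, the glucose transporter of beta cells and hepatocytes, was at least 2.45-fold higher (adjusted p = 0.00549), the 1 called of 7 endocrine markers. The clock genes Dbp (3.31-fold, adjusted p = 0.0113) and Per2 (1.75-fold, adjusted p = 0.0256) were the 2 called of 18. Psmb10, a subunit of the immunoproteasome, was 1.85-fold higher (adjusted p = 0.0273), 1 of 16 antigen presentation genes. Serpini1, neuroserpin, was 2.01-fold higher (adjusted p = 0.0411), 1 of 14 serpins. Lower were Hk2, a hexokinase (1.93-fold, adjusted p = 0.0104), 1 of 28 genes of glycolysis and hypoxia, and Fasn, the fatty acid synthase (1.63-fold, adjusted p = 0.0411), 1 of 26 genes of lipid synthesis. Hk2 and Slc2a2 were called in all 8 fits with 1 array left out. Calls were lost without yDucts A or C for Dbp (adjusted p 0.0521 and 0.0502), without Ducts C or D or any yDucts array for Per2 and Fasn (0.0584 to 0.13), without Ducts C or any yDucts array for Psmb10 (0.0653 to 0.0947) and without Ducts D or any yDucts array for Serpini1 (0.0622 to 0.14). Peg3 lost its call without Ducts C and D together (0.0518).

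Some lists without a single call were those in which the native arrays disagreed. Of 30 genes of amino acid metabolism and its stress response, 4 had a difference above 0, the median was -0.62 and 8 had an unadjusted p under 0.05. For comparison, 19.4% of all genes had such a p. The list median relative to the Ducts mean was -0.23 and -0.65 in Ducts A and B, 0.45 and 0.55 in Ducts C and D and between -0.99 and -0.39 in yDucts, so that the yDucts arrays lay nearer to Ducts A and B than to Ducts C and D. Without Ducts A and B 21 of the 30 were called lower and 2 higher, and without Ducts B alone 7 were called lower. The first of these fits called 16.5% of all genes lower and 18.5% higher, and the second called 584 of the 14363 lower. Endoplasmic reticulum genes behaved alike, with a median of -0.34 and 3 of 24 above 0. Without Ducts A and B 19 of these were called lower and 2 higher, beside 16.5% and 18.5% of all genes. Without Ducts C and D the median turned to 0.13 with none called, beside 1.57% of all genes lower and 2.07% higher. Interferon response genes gave 0 calls of 31 by limma, with 3 at an unadjusted p under 0.05. Their median was -0.48 in Ducts A, 0.32 in Ducts B, 0.72 in Ducts C and -0.72 in Ducts D, and all yDucts arrays, from -0.33 to -0.13, lay inside that range. There were also 0 calls among 33 chemokine and cytokine genes, 20 aldehyde dehydrogenases, 17 HOX genes and 24 immediate early and heat shock genes tested by limma, with 8, 6, 2 and 8 at an unadjusted p under 0.05. Over all genes 4.17% were called and 19.4% had such a p. Without Ducts A and B the higher and lower counts were 17 and 3, 7 and 2, 3 and 1, and 11 and 3 in the same order. That fit called 18.5% and 16.5% of all genes. Without Ducts C and D they were 0 and 0, 0 and 1, 0 and 0, and 0 and 0, beside 2.07% and 1.57%. The chemokine and cytokine median was 0.905 without Ducts A and B and -0.41 without Ducts C and D.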

How the data were processed

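The series holds 12 Affymetrix mouse arrays, of which the 4 Ducts and 4 yDucts arrays were compared. Groups came from the sample titles. The deposited table gives a log2 expression value for every probe set on every array, which the submitters' processing notes credit to RMA (background correction, quantile normalization and median polish). The sources used here do not name the RMA version, the chip definition or any filter, nor whether all arrays were normalized together. Because arrays were normalized to each other, a level says how a gene stands among the others of the same array, and a change in total RNA cannot be seen. Detection calls were not given, and with 4 arrays a group the precision is limited by their number.

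The table held 45101 probe sets, 64 of them controls. The platform annotation gave 34945 probe sets 1 symbol, 932 several and 9211 none, and 34741 had an Entrez identifier found in RefSeq (GRCm38.p6), with 0 symbols updated. A gene was represented by the single-symbol probe set with the highest mean over the 8 arrays, giving 18193 genes. A gene was tested if it exceeded the 30th percentile of the array on at least 4 of 8 arrays, which left 14363. Group means were compared with limma (version 3.58.1, R 4.3.3; 6 residual and 2.23 prior degrees of freedom), two-sided, with Benjamini-Hochberg adjustment over all genes tested. A gene with an adjusted p under 0.05 was called. The procedure was tested on simulated data. Where the lower group's mean lay under the percentile, its values were raised to it and the fold is a lower bound. Levels and differences are log2, errors are SD (n = 4) or the SE of the model, and no array pair held identical values.

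The groups, gene lists and genes were chosen with earlier results of these data known. There were 48 lists, with 1070 of 1154 genes on the array. The text names, of the called genes with separate groups, the 15 largest increases and the 15 largest decreases, as well as the study's markers with Yap1 and Wwtr1, up to 4 called members of each list, and markers of cell types. Any other gene is marked as chosen after its values were seen. Of the 82 called genes so named, 34 had another probe set that passed the filter on low values, the kind counted as other probe sets in the text, and 4 had one moving the opposite way (Wnt7a, Fzd6, Lmna and Gstm7). Motifs were searched on both strands in RefSeq windows of 300 bases, 250 before and 50 after the start. Alternatives covered the arrays in the fit, the replicate letter as a block, normalization, filters, the choice of probe set, array weights, variance trend and leaving out arrays.

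Same-letter arrays deviated from their group means with correlations of 0.14 (A), -0.33 (B), -0.36 (C) and 0.11 (D). With so few arrays, and with the split of the Ducts arrays part of these deviations, the correlations cannot decide whether the letters pair the arrays. Whether arrays of the same letter share a mouse, isolation or culture was not tested.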

Additional observations from a re-analysis of the deposited data

Results flagged for a closer look

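Within a group of 4 arrays, 22 of 242 gene and group combinations held an array that stood far from the other 3, judged by its gap to the nearest array as a share of the group's range. Chance alone flags about 1 in 20 such groups. yDucts B accounted for 8 of the 22, Ducts A for 6, Ducts B for 3 and yDucts D for 2, with 1 each for Ducts C, Ducts D and yDucts A and 0 for yDucts C.

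yDucts B was the lowest of its group for Gdf10 (gap 0.918 of the range), Ifitm3 (0.928), Krt19 (0.846), Myl9 (0.903), Pdx1 (0.875) and Vim (0.862), and the highest for Notch1 (0.875) and Cpn1 (0.851). Vim in yDucts B stood at 9.51 against 10.76 in the next array, Krt19 at 11.03 against 12.57 and Myl9 at 3.55 against 6.16. The range behind the Pdx1 and Notch1 values was 0.16 in each case.

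Ducts A was the highest native array for Bambi (0.922), Sod3 (0.940), Rcn1 (0.904) and Gpc3 (0.907) and the lowest for Reg3g (0.832) and S100a14 (0.914). Rcn1 in Ducts A stood at 5.94 against 4.06 in the next array. Ducts B was the highest for Cdkn2c (0.924), S100a9 (0.886) and Ugt2b5 (0.834). S100a9 in Ducts B stood at 8.42 against 6.09.

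Single values stood apart for Cdhr5 in Ducts D (lowest, 0.852), Serpini1 in Ducts C (lowest, 0.884), Lmna (highest, 0.830) and Mst1r (highest, 0.987) in yDucts D, and St14 in yDucts A (lowest, 0.833). Mst1r in yDucts D stood at 4.09 against 3.32 in the next array and 4.94 in the lowest native array.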

How the results depend on the processing

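Against 403 genes higher and 196 lower in the fit of 8 arrays, the replicate block by letter gave 98 and 37. Array weights per array gave 2967 and 2749, a split of 51.9% higher against 67.3%. Leaving out 1 array gave 126 to 790 higher and 49 to 584 lower, and leaving out Ducts A and B gave 2654 and 2366. All other alternatives kept both counts within 1.5 times, and no scaling moved the median of all genes by more than 0.0143. None of the 599 calls changed sign, except 3 with the probe set of largest interquartile range and 2 where probe sets of a gene were averaged.

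Of the 82 called genes named by the rule, 28 kept their call in every alternative applied to all genes, and none changed direction. The replicate block ended 51 of these calls, leaving out yDucts A or yDucts C 43 each, all 12 arrays in the fit 14, array weights per group 10 and the mean of all probe sets 10. The causes were not tested.

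Of the 14 named genes not called, 7 were called without Ducts A and B, and the same 7 with array weights per array: Car2 (differences 3.45 and 2.96), Cd44 (1.54 and 1.25), Cela1 (1.33 and 1.08), Hes1 (0.72 and 0.63), Myc (-0.48 and -0.36), Pdx1 (0.31 and 0.29) and Yap1 (0.32 and 0.30). The weighted fit gave Ducts A and B weights of 0.26 and 0.19, against 2.44 and 0.996 for Ducts C and D. It is therefore close to leaving out Ducts A and B, and these fits called 39.8% and 35% of all genes. Yap1 was also called with the probe set of largest interquartile range (0.74). Other differences changed sign. Without Ducts C and D, Car2 was at -1.52, Ccn2 at -0.41, Cela1 at -0.13, Hes1 at -0.062 and Myc at 0.10. Without Ducts A and B, Krt19 was at 0.38 and Sox9 at 0.30. With 1 array left out, Ccn2 spanned -0.19 (without Ducts D) to 0.37, Krt19 -0.32 to 0.34 (0.20 without Ducts B) and Cpa1 -0.035 to 0.085 (-0.011 without yDucts D). Krt19 was at 0.43 with array weights, where Sox9 was at 0.034. Cpa1 was at -0.0041 with array weights and -0.0025 with low values raised. The spread of the native arrays limits what could be called: 71 differences of 2 or more were not.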

Other observations

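The genes in this section were chosen after their values were seen, so their values are a description. Esrp1, a splicing regulator of epithelia, stood at 9.66, 9.64, 9.80 and 9.95 in Ducts A to D and at 7.68, 8.17, 8.01 and 8.66 in yDucts A to D (difference -1.63, adjusted p by limma = 0.00472). Rab25, a GTPase of apical recycling, differed by -1.73 (adjusted p = 0.00399), Ap1m2, an adaptor of basolateral sorting, by -1.65 (adjusted p = 0.00245), and Ildr1, a protein of tricellular junctions, by -1.76 (adjusted p = 0.00438). The membrane protease St14 differed by -1.25 (adjusted p = 0.000735) and Prss8, a protease that acts with it, by -1.49 (adjusted p = 0.0256). Cdh1, which encodes E-cadherin, stood at 11.70 to 11.74 in Ducts and 11.56 to 11.73 in yDucts (difference -0.08, adjusted p = 0.594), high on all 8 arrays. Leaving out single arrays ended the call of Prss8 (without Ducts C or D or yDucts A, C or D, adjusted p up to 0.0896) and of none of the other 5 called genes.

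Crtap, a partner of the prolyl 3-hydroxylases, stood at 8.35, 8.11, 8.06 and 7.75 in Ducts and at 9.62, 9.46, 9.60 and 9.56 in yDucts (difference 1.49, adjusted p = 0.00108). P3h1, P3h3 and P3h4 of the prolyl 3-hydroxylase family differed by 0.93, 1.24 and 0.96, the collagen chaperone Fkbp14 by 2.06 (adjusted p = 0.0044) and the calcium-binding protein Rcn1 by 3.64 (adjusted p = 0.00443). P3h1 and P3h3 lost their calls without Ducts C or D or any yDucts array (adjusted p up to 0.101 and 0.128), and P3h4 without Ducts C or yDucts A, C or D (up to 0.0673). Also called higher were C1ra, a complement protease (difference 2.35), Hpx, which encodes haemopexin (2.32), Cpn1, carboxypeptidase N (1.65), and Crp, C-reactive protein (3.17). Crp lost its call without Ducts C or D or any yDucts array (adjusted p up to 0.115). Sox17, an endoderm factor, stood at 8.68 to 9.37 in Ducts and 9.91 to 11.26 in yDucts (difference 1.87, adjusted p = 0.017), and lost its call without Ducts C or D or yDucts A, C or D (up to 0.0662).

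Calls were unevenly spread over the chromosomes. Of 440 X-linked genes tested, 34 were higher and 3 lower, 8.41% in all, against 2.74% to 5.43% on single autosomes. The median difference was 0.11 on the X chromosome and between -0.06 and 0.08 on the autosomes, and 63.9% of X-linked genes were above 0, against 49.8% of all genes. Among them were Gpc3 (difference 3.79), Maob (2.90), Timp1 (2.92), Nap1l3 (1.63) and Magee1 (1.26), each called in all 8 fits with 1 array left out. None of the 4 sex-linked and 3 strain-variable genes tested was called, beside 4.17% of all genes. Their medians were 0.09 and -0.08, and 0 and 1 of them had an unadjusted p under 0.05. What lies behind the uneven spread was not tested.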
